A study of Homo sapiens with 6 samples.

Results

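Wnt genes encode secreted ligands, the receptors that bind them, and proteins that damp or relay the signal. Members were the genes whose symbol fitted a fixed list of name patterns for Wnt ligands, Frizzled receptors, co-receptors, R-spondins and their receptors, secreted antagonists, cytoplasmic components and TCF/LEF factors. Of 19775 genes measured on the arrays 59 fitted, and 57 of them are protein-coding members of the pathway. The other 2, FZD4-DT and FZD10-AS1, are non-coding RNAs whose names carry a Frizzled symbol. Each gene was read from its brightest probe set, a group of short probes for 1 or more transcripts, and the 59 genes had 121 probe sets in all. A further 6 probe sets carried a fitting symbol together with a second gene's symbol and were left out.

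In the branch that acts through β-catenin, a Wnt ligand joins a Frizzled receptor to the co-receptors LRP5 and LRP6. Dishevelled proteins then hold back the AXIN and APC complex that destroys β-catenin, and β-catenin works with TCF/LEF factors at target genes. Other ligands, WNT5A and WNT5B best known among them, act mostly through Frizzled, ROR and RYK receptors without β-catenin and guide cell polarity and movement. In squamous epithelium, Wnt signals bear on stem cell renewal and on migration.

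The arrays held RNA from CaSki cells, a long-established line from a human squamous carcinoma of the cervix. Cells given 2 ng/mL recombinant TGF-b1, a growth factor of the TGF-β family, were compared with cells kept in medium without it. Each group had 3 arrays, numbered 1 to 3. The labels give neither the length of treatment nor whether the 3 came from separate cultures, so p-values here reflect spread among these samples, and that spread may be technical. Values are log2 expression estimates, so a difference of 1 is a doubling.

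The response to TGF-b1 was present on all treated arrays. SMAD7, the inhibitory SMAD, rose 3.17-fold, and PMEPA1 and SKIL, feedback genes of the same pathway, rose 3.94-fold and 2.12-fold (limma adjusted p = 7.9e-05, 9.8e-06 and 9.4e-04). The 7 measured markers of epithelial cells were KRT5, KRT8, KRT18, KRT19, EPCAM, CDH1 and SFN. They stood between 10.4 and 13.6 (log2), all above the array median of 4.16. Of these, EPCAM was 1.62-fold lower and KRT8 1.51-fold higher on the treated arrays (limma adjusted p = 9.5e-04 and 0.0034). Markers of fibroblasts (7 genes), endothelial cells (5) and immune cells (4) averaged 3.69 to 3.82, 4.23 to 4.25 and 4.03 to 4.12 on untreated arrays, and 3.77 to 3.82, 4.23 to 4.30 and 4.05 to 4.32 on treated arrays. Above the array median stood 3 of the fibroblast, 3 of the endothelial and 2 of the immune markers, at up to 4.84, 5.67 and 5.60. Of all these markers only the endothelial CDH5 and KDR passed, with differences of -0.41 and 0.29 (log2) (limma adjusted p = 0.030 and 0.034). Their mean levels were 3.11 and 2.82, below the array median. The part of these shifts in the results on the Wnt genes was not tested. In the control probe sets for GAPDH and ACTB, which bear on RNA quality, 3′ exceeded 5′ signal most on both arrays numbered 1, by 1.19 (untreated) and 1.15 (treated) (log2), while the other 4 arrays ranged from 0.690 to 0.863. Its part in the results below was not tested beyond the fits named there.

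Of the 59 members 9 changed with TGF-b1, 4 upward and 5 downward (limma, Benjamini-Hochberg adjusted p below 0.05 over all genes). That is 15.3% of the members, and 8.50% of all genes passed the same test. The ligands WNT5B, WNT5A and WNT7A and the Dishevelled gene DVL3 rose. The Frizzled receptors FZD5, FZD6 and FZD7, the R-spondin receptor LGR4 and the Dishevelled-binding protein NKD2 fell. All 9 stood above the array median. They were 9 of the 41 members above it, where 12.0% of all genes above it changed. The median difference over the 59 members was -0.01 (log2), and over all genes it was -0.00. The 50 members that did not pass had differences from -0.32 to 0.34.

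**Figure D1:**
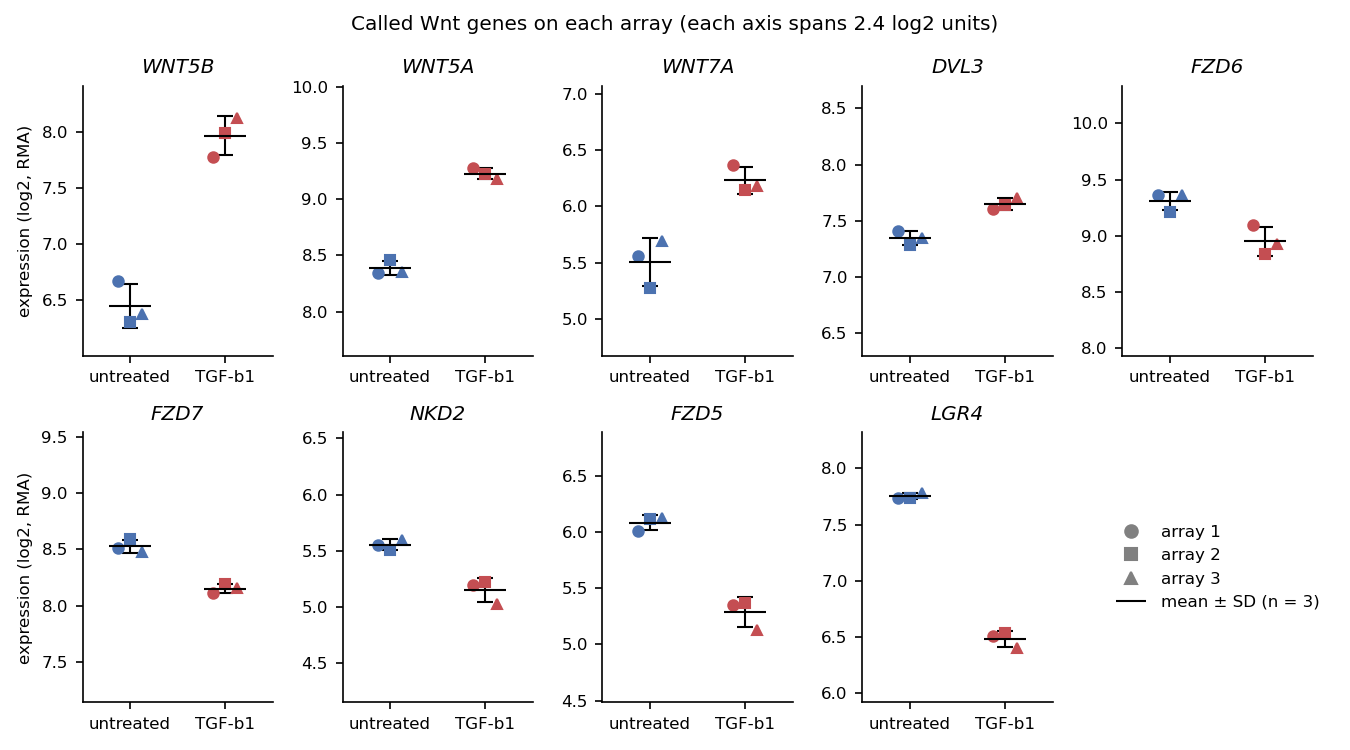
Expression (log2) of the 9 Wnt genes that changed, on each of the 3 untreated arrays (blue) and the 3 arrays with TGF-b1 (red), with the mean and SD of each group. No treated point overlaps an untreated point in any of the 9 panels, and the widest gaps are those of WNT5B and LGR4.

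The calls differed in how they stood up to leaving out arrays. With any 1 array left out, WNT5B, WNT5A, WNT7A, FZD5 and LGR4 still passed, while DVL3, FZD6, NKD2 and FZD7 each fell short in at least 3 of the 6 such fits. Without both arrays numbered 1, 4 members passed, namely WNT5B, WNT5A, FZD5 and LGR4, and 3.17% of all genes did. With the 3′ over 5′ signal as a covariate all 9 still passed.

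**Figure D2:**
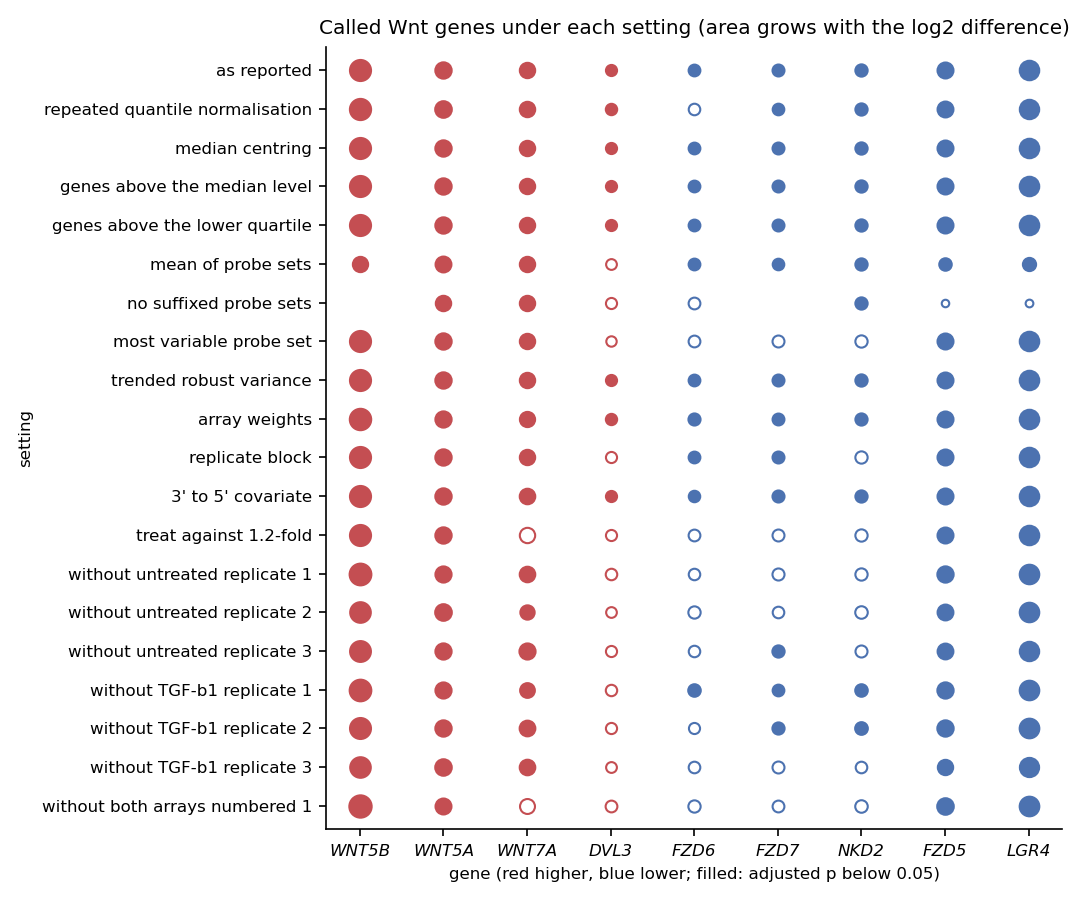
Each of the 9 changed members (columns) under each setting (rows), with point area growing with the size of the log2 difference, red for higher and blue for lower with TGF-b1, and filled points for an adjusted p below 0.05. WNT5A is filled in every row, WNT5B in every row where it could be tested, and DVL3 is open in all 6 rows that leave out 1 array.

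Of the 17 measured Wnt ligands 3 rose and 0 fell, where 4.03% of all genes rose and 4.47% fell. WNT5B stood at 6.67, 6.30 and 6.38 on the untreated arrays and at 7.78, 7.99 and 8.12 on the treated arrays (log2). Its treated values all lay more than 1 unit above its untreated values. The rise was 1.51 ± 0.12 (log2, SE), or 2.85-fold, with a limma adjusted p of 3.2e-04. WNT5B encodes a ligand of the branch that does not use β-catenin.

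WNT5A, its close relative and the best known ligand of that branch, stood at 8.34, 8.46 and 8.36 on the untreated and at 9.27, 9.23 and 9.18 on the treated arrays. The spread within each group was small beside the step between them. It rose by 0.84 ± 0.07 (log2, SE), or 1.79-fold (limma adjusted p = 4.1e-04). WNT7A, a ligand of epithelial cells, stood at 5.56, 5.27 and 5.69 untreated and at 6.37, 6.15 and 6.18 with TGF-b1. It rose by 0.72 ± 0.12 (log2, SE), or 1.65-fold (limma adjusted p = 0.0094), and the groups did not overlap. Without both arrays numbered 1 the WNT7A difference was 0.68 and did not pass (limma adjusted p = 0.0868).

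The bases before the starts of WNT5A and WNT5B are shown because these are the 2 ligand genes with the largest rises, each with 2 annotated starts, and those of LGR4 because it had the largest fall. Each line gives the 250 bases before a start, 5′ to 3′ on the gene's strand, from RefSeq promoters of build GRCh38.p14. Capitals mark a match to the SMAD box CAGAC. They lie at chr3:55487307-55487556 (minus strand) and chr3:55481399-55481648 (minus strand) for WNT5A, at chr12:1616806-1617055 (plus strand) and chr12:1628981-1629230 (plus strand) for WNT5B, and at chr11:27472791-27473040 (minus strand) for LGR4.
WNT5A start 1: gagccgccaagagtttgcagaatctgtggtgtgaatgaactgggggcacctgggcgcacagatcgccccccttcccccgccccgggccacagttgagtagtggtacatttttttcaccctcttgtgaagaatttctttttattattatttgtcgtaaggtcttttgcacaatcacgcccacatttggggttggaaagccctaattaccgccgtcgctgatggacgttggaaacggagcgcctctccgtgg
WNT5A start 2: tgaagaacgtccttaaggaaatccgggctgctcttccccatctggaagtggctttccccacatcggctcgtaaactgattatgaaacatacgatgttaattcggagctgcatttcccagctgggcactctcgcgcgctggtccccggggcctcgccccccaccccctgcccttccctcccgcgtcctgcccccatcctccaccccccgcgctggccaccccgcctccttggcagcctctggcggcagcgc
WNT5B start 1: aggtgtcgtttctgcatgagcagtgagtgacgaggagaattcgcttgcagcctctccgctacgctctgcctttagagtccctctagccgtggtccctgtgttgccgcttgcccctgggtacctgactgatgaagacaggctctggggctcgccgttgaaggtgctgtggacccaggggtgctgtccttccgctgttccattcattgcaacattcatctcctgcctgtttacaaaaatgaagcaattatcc
WNT5B start 2: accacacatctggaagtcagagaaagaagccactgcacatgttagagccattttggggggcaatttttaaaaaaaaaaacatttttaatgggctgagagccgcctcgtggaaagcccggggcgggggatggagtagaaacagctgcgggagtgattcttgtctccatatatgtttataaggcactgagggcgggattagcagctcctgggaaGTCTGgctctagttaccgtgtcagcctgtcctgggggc
LGR4 start 1: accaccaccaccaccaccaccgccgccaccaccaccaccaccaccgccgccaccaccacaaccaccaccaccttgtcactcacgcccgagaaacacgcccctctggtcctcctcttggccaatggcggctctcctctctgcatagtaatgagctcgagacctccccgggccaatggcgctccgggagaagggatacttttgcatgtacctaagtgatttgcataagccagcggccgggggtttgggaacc

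The 3 motifs searched on both strands of these windows were the TCF/LEF core CTTTGA, the SMAD box CAGAC and the AP-1 site TGANTCA. Of the 9 changed members 7 had 1 or more windows in the promoter table, 9 windows in all. CAGAC was found in 1 of the 9, the second WNT5B window, as GTCTG on the printed strand, 34 to 38 bases before the start. CTTTGA and TGANTCA were found in 0 of the 9. Of all 35116 promoter windows of this length 38.0% held CAGAC, 11.2% CTTTGA and 6.57% TGANTCA. The table had 48 windows for 41 of the 59 members, and 16, 1 and 0 of these held the 3 motifs in that order. A match or its lack says only which letters stand in these windows.

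The other 14 ligands did not pass, with differences from -0.20 to 0.23 (log2). WNT10B had means of 4.78 untreated and 4.96 treated, without overlap, and its difference of 0.17 had a limma adjusted p of 0.19. Groups without overlap were common, at 29.2% of all genes and 15 of the 59 members. Above the array median with WNT10B were WNT2B, WNT4, WNT6, WNT7B, WNT8A, WNT8B, WNT9A, WNT10A, WNT11 and WNT16, and below it were WNT1, WNT2 and WNT9B.

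**Figure D3:**
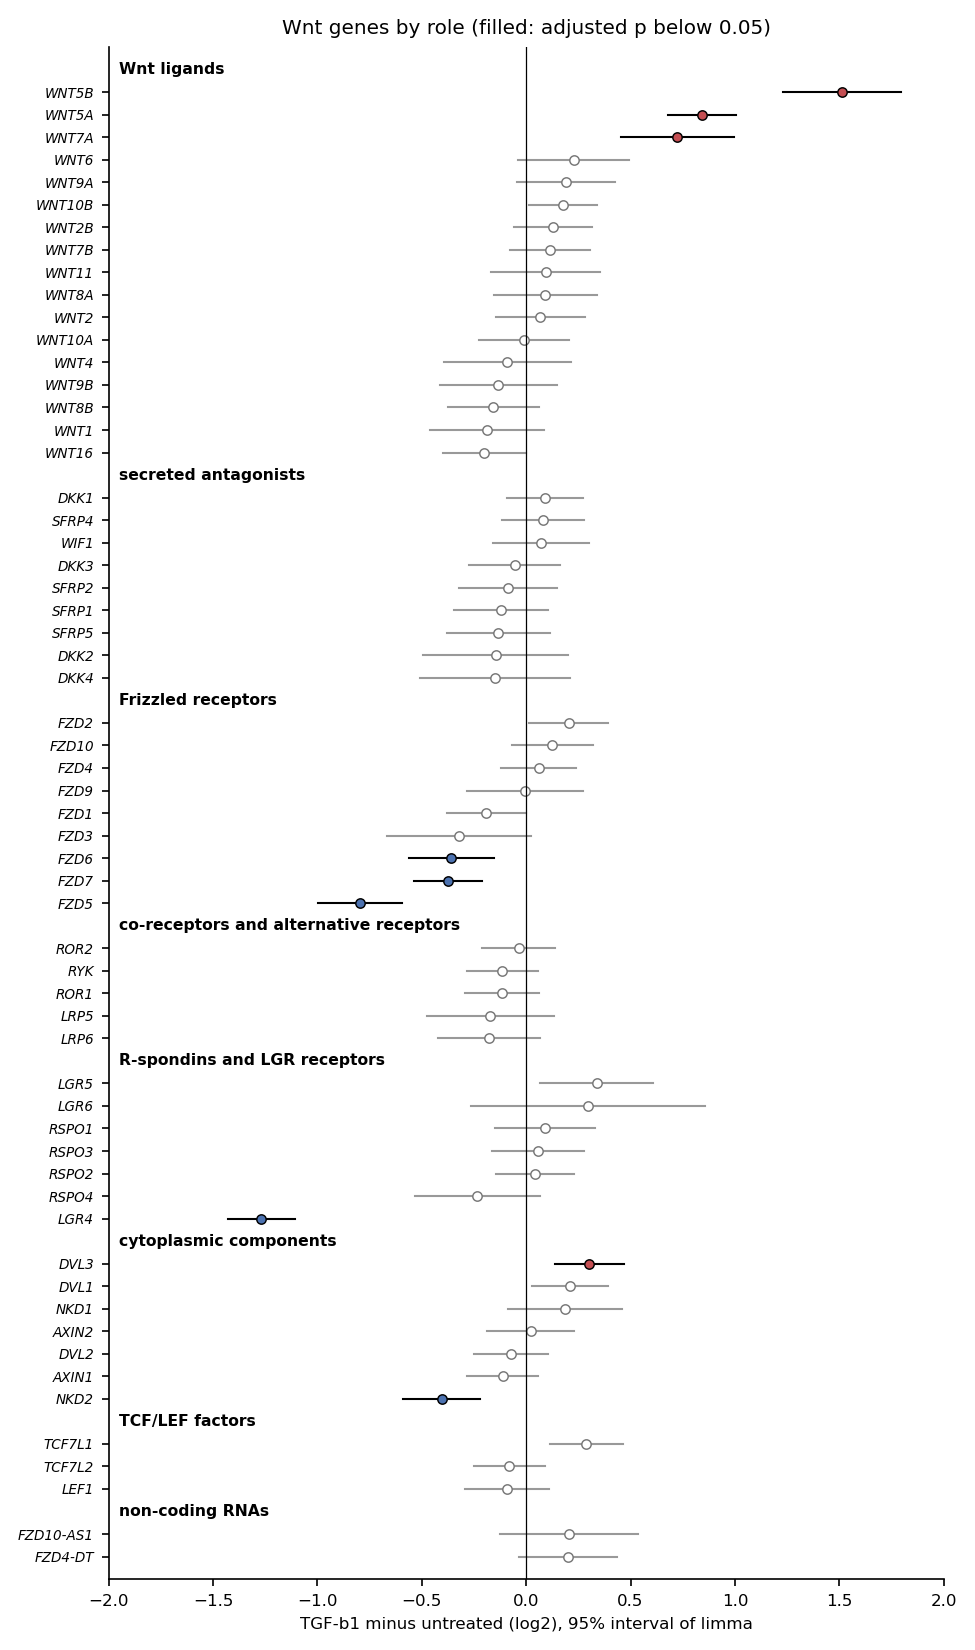
Difference between cells with TGF-b1 and untreated cells (log2, horizontal axis) for all 59 members grouped by role, with the 95% interval of limma. Filled points passed at an adjusted p below 0.05 and run from -1.27 for LGR4 to 1.51 for WNT5B, while the 50 open points lie between -0.32 and 0.34.

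Frizzled proteins are the membrane receptors that bind Wnt ligands. Of 9 measured, 3 fell and 0 rose, where 4.47% of all genes fell and 4.03% rose. FZD5 stood at 6.01, 6.12 and 6.12 on the untreated arrays and at 5.35, 5.37 and 5.13 on the treated arrays. Every treated value was below every untreated one, and the difference was -0.80 ± 0.09 (log2, SE), 1.74-fold lower (limma adjusted p = 0.0014).

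FZD7 stood at 8.51, 8.59 and 8.48 untreated and at 8.11, 8.19 and 8.15 treated. This smaller step was still outside the range of each group. It came to -0.38 ± 0.07 (log2, SE), 1.30-fold lower (limma adjusted p = 0.0167). FZD7 fell short when untreated array 1, untreated array 2 or treated array 3 was left out (limma adjusted p = 0.0540, 0.0726 and 0.0526).

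FZD6 stood at 9.36, 9.22 and 9.36 untreated and at 9.09, 8.84 and 8.93 treated. Its highest treated value came close to its lowest untreated value. The difference was -0.36 ± 0.09 (log2, SE), 1.28-fold lower (limma adjusted p = 0.0460), and FZD6 fell short in 5 of the 6 fits that left out 1 array (limma adjusted p up to 0.148) and after repeated quantile normalisation (limma adjusted p = 0.0636).

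The other 6 Frizzled genes did not pass, with differences from -0.32 (FZD3) to 0.20 (FZD2). FZD2 stood at 9.53, 9.49 and 9.50 untreated and at 9.58, 9.72 and 9.83 treated, without overlap. The difference of 0.20 did not pass (95% interval 0.01 to 0.39, limma adjusted p = 0.19). FZD1 was lower on every treated array, with a difference of -0.19, and did not pass (limma adjusted p = 0.21). Its highest treated value, 4.977, lay barely below its lowest untreated value, 4.978. The dimmer FZD1 probe sets, at 3.79 and 2.05, differed in the other direction, by 0.02 and 0.23, without passing. FZD4, FZD9 and FZD10 differed by 0.06, -0.01 and 0.12, and FZD9 and FZD10 stood below the array median.

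The co-receptors LRP5 and LRP6, and ROR1, ROR2 and RYK, which bind ligands such as WNT5A, did not pass. Of these 5, RYK stood at 9.43, 9.52 and 9.43 untreated and at 9.43, 9.29 and 9.32 treated. Its groups overlapped at array 1, and the difference was -0.11 with a 95% interval from -0.28 to 0.05. The dimmer RYK probe sets, at 8.07 and 6.78, fell further, by 0.23 and 0.21 (log2). Tested as single probe sets they did not pass (limma adjusted p = 0.14 and 0.29). LRP6 and LRP5 differed by -0.18 and -0.17, ROR1 by -0.12, and ROR2, below the array median at 3.12, by -0.04. The dimmer LRP6 probe sets, at 5.69 and 4.08, differed by 0.22 and -0.00 without passing.

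LGR4, LGR5 and LGR6 are receptors for R-spondins, secreted proteins that raise the amount of Frizzled at the cell surface. LGR4 stood at 7.74, 7.74 and 7.78 on the untreated arrays and at 6.51, 6.54 and 6.41 on the treated arrays. The 2 groups were more than 1 unit apart, with little spread in either. LGR4 fell by 1.27 ± 0.07 on the log2 scale (SE), 2.41-fold, with a limma adjusted p of 4.5e-05, the smallest among the members. LGR5 and LGR6 differed by 0.34 and 0.30 at levels of 3.34 and 4.35 and did not pass (limma adjusted p = 0.13 and 0.52). The 4 R-spondin genes, RSPO1 to RSPO4, differed by -0.23 to 0.09 without passing, and 3 of them, RSPO2, RSPO3 and RSPO4, stood below the array median.

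Among secreted antagonists SFRP1, SFRP2, SFRP4, SFRP5 and WIF1 bind ligands, while DKK1, DKK2 and DKK4 mostly bind LRP co-receptors. DKK3 was grouped with them by name. Of these 9 genes 0 rose and 0 fell, where 4.03% of all genes rose and 4.47% fell. An unadjusted p below 0.05 was reached by 0 of the 9 and by 4584 of all 19775 genes. With so few genes, these counts do not set the antagonists apart from all genes. DKK1 stood at 8.65, 8.49 and 8.50 untreated and at 8.70, 8.56 and 8.65 treated. These groups overlapped, and the difference was 0.09 with a 95% interval from -0.09 to 0.27. The others differed by -0.15 to 0.08. Besides DKK1 only SFRP1 and SFRP5 stood above the array median, at 4.23 and 4.20.

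Of the 7 cytoplasmic components 1 rose and 1 fell, where 4.03% of all genes rose and 4.47% fell. DVL3, 1 of the Dishevelled proteins that relay the signal from Frizzled, stood at 7.41, 7.28 and 7.35 untreated and at 7.60, 7.64 and 7.70 treated. The groups did not overlap but were close. It rose by 0.30 ± 0.07 (log2, SE), or 1.23-fold (limma adjusted p = 0.0404), and fell short in each of the 6 fits that left out 1 array (limma adjusted p up to 0.141).

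DVL1 and DVL2, the other Dishevelled genes, differed by 0.21 (95% interval 0.03 to 0.39) and -0.07 without passing. NKD2, which binds Dishevelled and damps the signal, stood at 5.56, 5.51 and 5.60 untreated and at 5.20, 5.23 and 5.02 treated. All treated values were lower than all untreated ones. It fell by 0.40 ± 0.08 on the log2 scale (SE), 1.32-fold (limma adjusted p = 0.0204), and fell short in 4 of the 6 fits that left out 1 array (limma adjusted p up to 0.0817). Its relative NKD1 differed by 0.19 without passing.

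AXIN2, a scaffold of the destruction complex and itself a widely used target gene of β-catenin signalling, stood at 4.98, 4.74 and 4.78 untreated and at 4.78, 4.96 and 4.82 treated. The groups overlapped, and the difference was 0.02 (95% interval -0.19 to 0.23, limma adjusted p = 0.92). Its other 3 probe sets, at levels from 2.70 to 4.08, differed by 0.01 to 0.09. AXIN1 differed by -0.11.

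Of the 3 measured TCF/LEF factors 0 passed, where 8.50% of all genes did. TCF7L1 stood at 6.40, 6.31 and 6.41 untreated and at 6.57, 6.71 and 6.70 treated, without overlap. Its difference of 0.29 ± 0.08 (log2, SE) was just outside the threshold (limma adjusted p = 0.0552). It passed under 6 of the alternative settings and, of the fits that left out 1 array, without treated array 1 (limma adjusted p = 0.0466). TCF7L2 stood at 8.24, 8.31 and 8.41 untreated and at 8.23, 8.26 and 8.22 treated. The groups overlapped, and the difference was -0.08 (95% interval -0.25 to 0.09). LEF1 stood below the array median at 3.97 and differed by -0.09. The non-coding RNAs FZD4-DT and FZD10-AS1 differed by 0.20 and 0.21 without passing.

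Probe sets of 1 gene did not always give the same size of change. Of the 59 members 34 had more than 1 probe set, and in 14 of these 1 or more dimmer probe sets differed in the opposite direction. Among the 9 changed members WNT7A, FZD6 and NKD2 had only 1 probe set each, so no second one could be compared. In the others no dimmer probe set had the opposite sign. Tested as single probe sets, where 4.67% passed, the second WNT5A probe set had a level of 6.85, a difference of 0.73 (log2), and passed (limma adjusted p = 0.0044). For WNT5B the dimmer probe sets, at 4.76 and 2.71, differed by 0.39 and 0.24 without passing. For LGR4 the dimmer ones, at 4.55 and 2.78, differed by -0.15 and -0.06, and for FZD5 the dimmer one, at 4.36, differed by -0.05, all without passing. The second FZD7 and DVL3 probe sets, at 8.08 and 5.13, differed by -0.31 and 0.24 (limma adjusted p = 0.095 and 0.27). Averaged over all probe sets of the gene, the differences were -0.49 for LGR4, -0.42 for FZD5 and 0.72 for WNT5B, each still past the threshold. DVL3 fell short on this average (0.27, limma adjusted p = 0.0531). With single probe sets tested, the probe sets used for DVL3 and FZD6 fell short as well (limma adjusted p = 0.071 and 0.072).

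**Figure D4:**
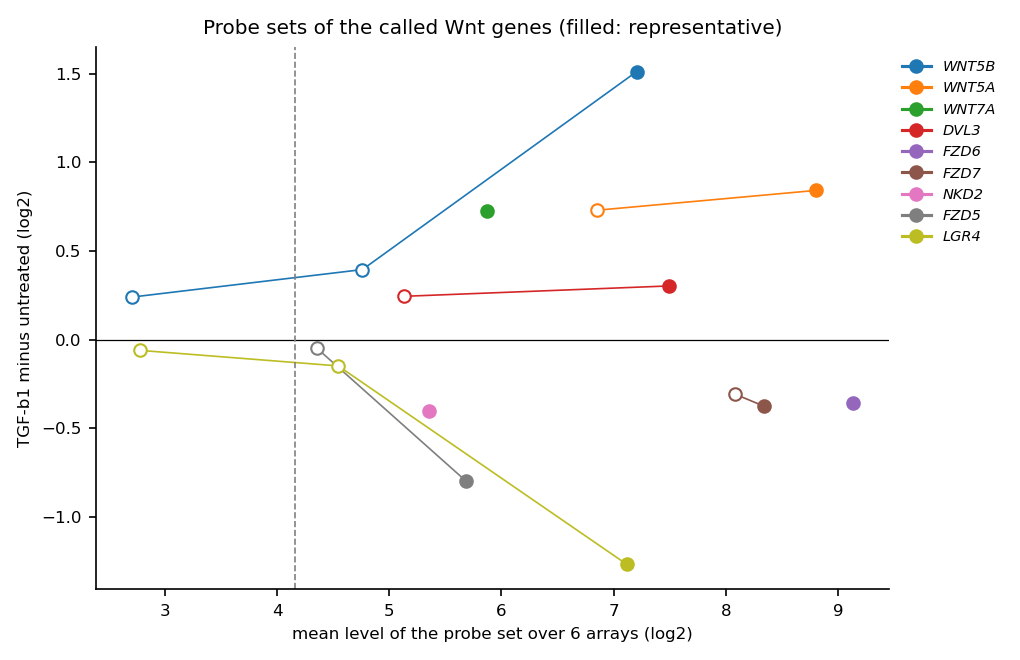
Difference with TGF-b1 (log2, vertical axis) against the mean level (log2, horizontal axis) of every probe set of the 9 changed members, with the probe set used filled and the array median of 4.16 dashed. The 2 WNT5A probe sets differed alike, at 0.84 and 0.73, while the dimmer probe sets of WNT5B, LGR4 and FZD5 lie nearer to 0.

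The rest of the pathway was followed in 6 lists with no gene in common with the members. Of their 131 genes 126 were measured, and 13 rose and 5 fell (limma adjusted p below 0.05), which is 14.3% against 8.50% of all genes. All 18 were among the 107 list genes above the array median, where 12.0% of all genes passed. The lists were drawn up with earlier results of these data known, so their shares are descriptive only. The median difference over the 126 genes was 0.06 (log2). Without the genes of the TCF target list, 6 of the other 93 genes passed, 6.45%, near the 8.50% of all genes.

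In the lists of Wnt secretion, the destruction complex and nuclear cofactors few genes passed, where 8.50% of all genes did. Counts this small do not set the lists apart from all genes. Of 6 genes for Wnt secretion 0 passed (1 had an unadjusted p below 0.05), and VPS29 and VPS26A, parts of the retromer that recycles the Wnt carrier, had the smallest p with differences of -0.22 and -0.11. Of 25 measured genes of the destruction complex and its regulators 1 rose and 0 fell (4%). This was DACT1, which binds Dishevelled, at 4.92, 4.43 and 4.46 untreated and 5.91, 6.09 and 6.01 treated, 2.64-fold higher (limma adjusted p = 7.1e-04). CTNNB1, which encodes β-catenin, differed by 0.06 with a 95% interval from -0.09 to 0.22, the kinase gene GSK3B by -0.05 and APC by -0.18. Of 18 nuclear cofactors only RUVBL1 (5.56% of the list), an ATPase of chromatin complexes, passed, 1.35-fold lower (limma adjusted p = 0.0403, up to 0.133 when single arrays were left out, past the threshold in 1 of 6 such fits).

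Of 17 other surface modulators 2 rose and 0 fell, 11.8% against 8.50% of all genes. CTHRC1, a secreted protein that favours the polarity branch, rose 1.49-fold from 5.76 to 6.33 (log2 means, limma adjusted p = 0.0026), and IGFBP4, which binds insulin-like growth factors and also LRP6, rose 1.41-fold (limma adjusted p = 0.0069), though not past the threshold without both arrays numbered 1 (limma adjusted p = 0.0644). Of 30 effectors of the branches that do not use β-catenin 2 rose and 0 fell, 6.67% against 8.50% of all genes. CELSR1, a cadherin of planar cell polarity, stood at 6.53, 6.39 and 6.34 untreated and at 7.59, 7.84 and 7.79 treated, 2.50-fold higher (limma adjusted p = 1.6e-04). Averaged over its probe sets, CELSR1 differed by 0.34 and did not pass (limma adjusted p = 0.0522). NFATC2, a calcium-regulated transcription factor, rose 1.37-fold and fell short in 5 of the 6 fits that left out 1 array (limma adjusted p up to 0.122).

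Genes known as targets of TCF and β-catenin moved in both directions. Of 33 measured, 8 rose and 4 fell, 36.4% against 8.50% of all genes, with a median difference of 0.09 (log2). All 12 were among the 29 that stood above the array median, where 12.0% of all genes passed. The list was drawn up with results of these data known, and several of its genes are also known to answer to TGF-β. TBX3 and PPARD, transcription regulators, rose 2.21-fold and 2.07-fold, TNFRSF19, a TNF receptor family member, 1.94-fold, and BAMBI, a decoy receptor for TGF-β family ligands, 1.54-fold. The other rises were CCN1, VEGFA, CCND1 and EDN1 at 1.51-fold, 1.44-fold, 1.36-fold and 1.31-fold. The protease gene MMP7 was 4.01-fold lower, the tight junction gene CLDN1 3.16-fold, the proto-oncogene MYC 1.96-fold and the stem cell factor ASCL2 1.40-fold lower. Among genes often read as feedback targets of β-catenin, NOTUM, RNF43, ZNRF3 and SP5 did not pass and differed by 0.09, -0.12, -0.29 and 0.13, respectively. EDN1, ASCL2 and CCND1 fell short in 6, 5 and 4 of the 6 fits that left out 1 array (limma adjusted p up to 0.0811, 0.120 and 0.0616), and BAMBI without treated array 2 or 3 (limma adjusted p = 0.0625 and 0.0586). Without both arrays numbered 1, TNFRSF19, EDN1 and ASCL2 did not pass (limma adjusted p = 0.0711, 0.110 and 0.214). Averaged over all probe sets of the gene, the differences were smaller for TBX3 (0.61), PPARD (0.57), TNFRSF19 (0.29) and CLDN1 (-1.03, log2). ASCL2 did not pass on this average and passed in 6 of the 13 alternative settings. With the replicate block and with the 3′ to 5′ covariate it fell short as well (limma adjusted p = 0.0752 and 0.0505).

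**Figure D5:**
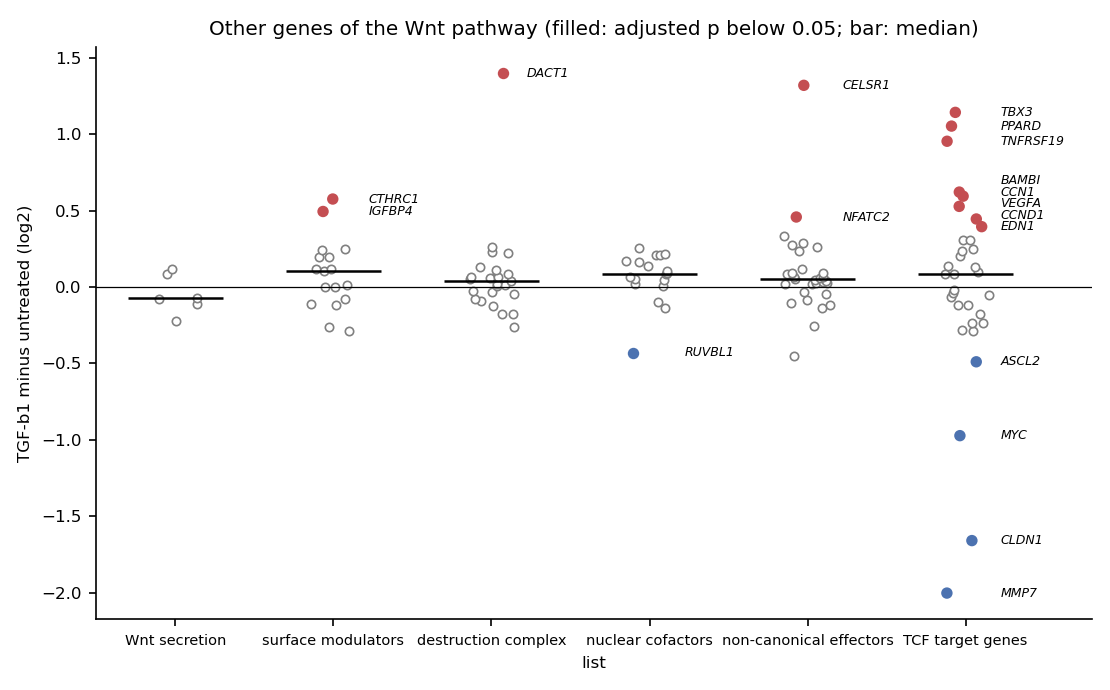
Difference with TGF-b1 (log2) of each measured gene in the 6 lists, with called genes filled (red higher, blue lower) and the list median as a bar. The list medians lie between -0.07 and 0.10, and 12 of the 18 called genes are in the list of TCF targets.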

How the data were processed

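Gene expression was measured on 6 Affymetrix 3′ arrays of 54675 probe sets, 3 per group. The deposited values are on a log2 scale, judging by their range of 1.57 to 14.5. Per the submitters' processing notes, the authors made them with Affymetrix Expression Console and RMA, which corrects background, equalises the arrays and summarises each probe set. Software versions were not given in the sources used here. These values carry no detection call, RMA is known to compress changes of dim probe sets, and precision is limited by 3 arrays per group.

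Names came from the platform annotation and RefSeq (GRCh38.p14, names only): 41091 probe sets had 1 symbol, 1801 several and 11721 none, giving 19775 genes, each read from its brightest probe set over the 6 arrays. limma 3.58.1 in R 4.3.3 (lmFit, eBayes, no covariate or filter) compared the groups, with Benjamini-Hochberg adjustment over all genes and a threshold of 0.05. Differences are treated minus untreated. Members, lists and alternatives were chosen with earlier results of these data known. The genes named were all called members, members without overlap, the brightest of each role and the called or leading genes of each list; LGR5, LRP6, AXIN2, CTNNB1, GSK3B, APC and feedback targets were added for their roles after values were seen. Simulated data had 19775 genes, independent normal noise and far fewer changed genes than were called here. In them 56% of 1.5-fold and 88% of 2-fold changes were recovered, and 5.26% of calls were false. These rates may not hold for the real arrays. Some listed genes were not analysed here. Alternatives covered normalisation, level filters, the choice of probe set, the variance model, weights, a block, a covariate, limma's treat and left-out arrays.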

Additional observations from a re-analysis of the deposited data

How the results depend on the processing

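The directions of the 9 changed members were the same under all 13 alternative settings and all 6 removals of a single array in which each could be computed; WNT5B and FZD7 have no probe set without a shared-sequence suffix. Several of the settings that kept the arrays and probe sets gave 9 or 10 changed members. These were repeated quantile normalisation, median centring, both level filters, the trended robust variance, array weights and the 3′ to 5′ covariate. Of the 9 reported, 8 were among them after repeated quantile normalisation, where FZD6 fell short and TCF7L1 passed, and all 9 in the others named. Among genes above the median level 10 of 23 members passed, 43.5% against 25.8% of all genes tested. Above the lower quartile 10 of 48 did, 20.8% against 14.3%. In the rest of these settings 15.3% to 16.9% of the members passed, against 7.85% to 13.3% of all genes. Without suffixed probe sets 3 of 48 members changed (2 higher, 1 lower), 6.25% against 5.98% of all genes, so the members' share was then near that of all genes; FZD5 and LGR4 differed by -0.05 and -0.06. With the most variable probe set 5 changed, 2 of them lower (8.47% against 5.36%). Against a fold of 1.2 in limma's treat, 7 of the 126 genes of the pathway lists passed. Of the members 4 changed (2 higher, 2 lower, 6.78% against 1.65%). Without both arrays numbered 1 there were 4 (2 higher, 2 lower, 6.78% against 3.17%). Without single arrays 5 to 9 members changed (3 or 4 higher, 2 to 5 lower), or 8.47% to 15.3% against 3.88% to 6.71% of all genes, the fewest without untreated array 1 or 2 or treated array 3, and 12 to 15 genes of the lists; these fits hold fewer samples. Deviations of same-numbered arrays correlated at 0.20, 0.06 and 0.09 for numbers 1, 2 and 3. The arrays numbered 1 also shared the highest 3′ over 5′ signal. These values do not settle whether the arrays were paired, and the reported fit took them as unpaired. With the replicate block 7 members changed (3 higher, 4 lower, 11.9% against 6.47%), and 16 genes of the lists. DVL3 and NKD2 fell short there (limma adjusted p = 0.0724 and 0.0520).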
